A study of Mus musculus with 12 samples.

Results

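The 10 genes described here are macrophage identity and polarization genes, chosen by symbol: Csf1r, Cd68, C1qa, Cd163, Mrc1, Arg1, Nos2, Marco, Spp1 and Trem2. All 10 were found, with 1 entry each, among 34303 gene symbols, and 9 of them passed the filter on low values and entered tests over 14752 genes. The libraries came from C57Bl6 mice and fall into 4 groups: cutaneous squamous cell carcinoma (cSCC) of TAp63-/- mice (n = 4), cSCC of wild-type (WT) mice (n = 2), dorsal skin of TAp63-/- mice (n = 3) and dorsal skin of WT mice (n = 3). TAp63 is the set of p63 isoforms with the N-terminal transactivation domain, and TAp63-/- mice lack it. The labels do not name a Cre driver or a conditional allele. Tumour-bearing mice were older than 35 weeks and had been exposed long-term to ultraviolet light, 2.5 kJ/m2 on 3 occasions a week, whereas skin came from shaved, untreated mice aged 4 weeks. Libraries are numbered here within each group. The labels do not say whether each came from a separate animal, so p-values measure the spread between these samples.

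Macrophages are phagocytes that settle in tissues early in life or arise from blood monocytes, and signals through the CSF1 receptor keep them alive. In skin they lie mainly in the dermis, clear debris, repair wounds and regulate inflammation. Their state is often described between a classical, interferon-driven pole, marked by nitric oxide synthase, and an alternative, IL-4-driven or resident pole, marked by arginase and by endocytic receptors. In tumours, macrophages that express osteopontin or the lipid receptor TREM2 are described as further states. Several of these genes are not restricted to macrophages: Arg1 and Spp1 are also made by epithelial cells.

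The unit is FPKM, fragments per kilobase of transcript and scaled to the size of the library, and a log2 change is the difference of log2(FPKM + 1). Tissue was joined with age and ultraviolet exposure and, by Xist, with sex: 5 of 6 tumours and 0 of the skin libraries were female. TAp63-/- cSCC replicate 2 stood apart, with the highest mean log2(FPKM + 1) of 5 leukocyte genes (6.38, against 3.78 to 4.92 in the other TAp63-/- tumours, 4.22 and 4.79 in WT tumours, 4.88 to 5.56 in TAp63-/- skin and 4.34 to 5.19 in WT skin). Skeletal muscle markers averaged 2.90 to 4.91 on the same scale in TAp63-/- tumours and 3.97 and 6.27 in WT tumours, against 9.69 to 10.38 in TAp63-/- skin and 9.59 to 9.73 in WT skin. Fibroblast markers averaged 5.49 to 7.05 in TAp63-/- tumours and 5.93 and 6.57 in WT tumours, against 8.13 to 8.72 in TAp63-/- skin and 7.43 to 8.19 in WT skin. The keratinocyte markers were present in every library. Hair follicle markers averaged 0.39 to 4.06 in TAp63-/- tumours (highest in replicate 2), 0.85 and 6.88 in WT cSCC replicates 1 and 2, and 1.26 in TAp63-/- skin replicate 1 against 4.00 to 7.50 in the other skin libraries. In the TAp63-/- comparison of tumour and skin, 7 of 7 muscle markers and 5 of 6 fibroblast markers fell, and the part of these tissues in the results that follow was not tested. Age and ultraviolet exposure cannot be told apart from tumour in this design. Sex can be told apart through 1 tumour alone, TAp63-/- cSCC replicate 1. That tumour was read as male from Xist alone, at 0.173 FPKM. The other tumours had 21.5 to 83.6 FPKM of Xist and skin at most 0.0252.

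The lineage genes were present in all 12 libraries. Csf1r (ENSMUSG00000024621) encodes the receptor for CSF1 and IL-34. It had 14.3, 30.7, 6.44 and 13.8 FPKM in TAp63-/- tumours, 14.2 and 14.9 in WT tumours, 34.7, 32.8 and 27.8 in TAp63-/- skin and 15.4, 24.8 and 30.2 in WT skin. Skin lay above tumour in both genotypes apart from TAp63-/- cSCC replicate 2, which reached the level of TAp63-/- skin. Cd68 (ENSMUSG00000018774, mm10 chromosome 11, 69664213 to 69666153), a lysosomal glycoprotein of phagocytes, had 90.3, 146, 23.8 and 52.2 FPKM in TAp63-/- tumours, 39.2 and 54.1 in WT tumours, 70.2, 107 and 125 in TAp63-/- skin and 46.8, 145 and 131 in WT skin. All groups overlapped with a neighbour, and the highest and the lowest value were both TAp63-/- tumours.

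C1qa (ENSMUSG00000036887, chromosome 4, 136895917 to 136898803) encodes a chain of the complement component C1q, which tissue macrophages secrete. It had 52.4, 147, 31.1 and 35.8 FPKM in TAp63-/- tumours, 20.8 and 50.5 in WT tumours, 64.9, 95.6 and 86.8 in TAp63-/- skin and 47.6, 68.2 and 84.6 in WT skin. Without TAp63-/- cSCC replicate 2, the TAp63-/- tumours all lay below TAp63-/- skin. By group mean, Csf1r and C1qa had the order TAp63-/- skin, WT skin, TAp63-/- tumours, WT tumours, and Cd68 had both skin groups in the reverse order. Neighbours in these orders differed by less than the sum of their SDs: Csf1r averaged 16.3 ± 10.3 FPKM in TAp63-/- tumours (SD, n = 4), 14.5 ± 0.487 in WT tumours (n = 2), 31.8 ± 3.57 in TAp63-/- skin (n = 3) and 23.5 ± 7.50 in WT skin (n = 3). In a bulk sample, fewer cells of a type and less RNA per cell cannot be told apart.

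Among the resident and alternatively activated genes, the endocytic receptors had their lowest group means in tumours and arginase its highest. Cd163 (ENSMUSG00000008845, chromosome 6, 124304651 to 124330527) takes up haemoglobin bound to haptoglobin. It had 2.22, 3.45, 1.37 and 0.649 FPKM in TAp63-/- tumours, 1.57 and 6.59 in WT tumours, 12.3, 5.94 and 5.27 in TAp63-/- skin and 3.75, 3.57 and 5.04 in WT skin. Every TAp63-/- tumour lay below every skin library, whereas the WT tumours lay on either side of WT skin. Mrc1 (ENSMUSG00000026712, chromosome 2, 14229414 to 14332057), the mannose receptor CD206, had 6.56, 24.0, 5.85 and 6.60 FPKM in TAp63-/- tumours, 4.25 and 19.3 in WT tumours, 29.6, 36.6 and 24.8 in TAp63-/- skin and 14.3, 22.3 and 31.0 in WT skin. Each genotype had 1 tumour, replicate 2, near skin levels, and the other tumours were below all skin libraries.

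Arg1 (ENSMUSG00000019987, chromosome 10, 24915208 to 24927470) encodes arginase, which turns arginine into ornithine and urea. It had 109, 48.8, 36.6 and 65.3 FPKM in TAp63-/- tumours and 66.8 and 84.3 in WT tumours, against 12.1, 15.2 and 9.72 in TAp63-/- skin and 18.2, 11.5 and 14.0 in WT skin. Tumour and skin values did not overlap in either genotype. By group mean the order was WT tumours, TAp63-/- tumours, WT skin, TAp63-/- skin, with neighbours of 1 tissue overlapping, and that of Cd163 and Mrc1 was TAp63-/- skin, WT skin, WT tumours, TAp63-/- tumours. Markers of keratinocytes, which also express Arg1, averaged 8.34 to 9.27 on the log2 scale in TAp63-/- tumours and 9.33 and 9.96 in WT tumours. They averaged 8.90 to 8.99 in TAp63-/- skin and 8.72 to 8.95 in WT skin. These averages join markers that moved in opposite directions. Of 6 markers, Krt5 and Krt14 rose and Krt10 and Epcam fell in TAp63-/- tumours, and Krt14 rose in WT tumours. Krt14 averaged 8305 FPKM in TAp63-/- tumours and 1026 in TAp63-/- skin, and 9628 and 1016 in WT mice. Krt10 averaged 681 and 3578 FPKM in TAp63-/- tumours and skin. The part of keratinocytes in the Arg1 values was not tested.

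The classical marker was near the filter's limit of 1 FPKM. Nos2 (ENSMUSG00000020826, chromosome 11, 78920787 to 78960254), the inducible nitric oxide synthase, had 0.343, 2.04, 0.592 and 0.630 FPKM in TAp63-/- tumours, 1.54 and 0.209 in WT tumours, 0.279, 0.168 and 0.187 in TAp63-/- skin and 0.151, 0.157 and 0.203 in WT skin. All tumours lay above the skin of their genotype, WT cSCC replicate 2 by a narrow margin. Nos2 passed the filter through 2 tumour libraries alone, TAp63-/- cSCC replicate 2 and WT cSCC replicate 1. The scavenger receptor Marco (ENSMUSG00000026390, chromosome 1, 120474538 to 120505084), which binds bacteria and particles, was at most 0.116 FPKM in any library and was listed at 0 in 3 of 4 TAp63-/- tumours and 1 of 2 WT tumours. Marco did not enter any test.

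Of the genes tied to tumour and lipid-associated macrophages, Spp1 was high in tumours and Trem2 varied within every group but WT tumours. Spp1 (ENSMUSG00000029304, chromosome 5, 104435118 to 104441050) encodes osteopontin, a secreted ligand of integrins and CD44. It had 46.2, 886, 27.1 and 36.9 FPKM in TAp63-/- tumours and 36.0 and 9.88 in WT tumours, against 2.43, 14.2 and 10.8 in TAp63-/- skin and 3.48, 14.6 and 6.23 in WT skin. Every TAp63-/- tumour was above all skin libraries, and 1 of the WT tumours was within the range of WT skin. The mean of 249 ± 425 FPKM in TAp63-/- tumours (SD, n = 4) was set by replicate 2, and the median was 41.6.

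Trem2 (ENSMUSG00000023992, chromosome 17, 48346401 to 48354147) encodes a receptor for lipids and lipoproteins. It had 8.27, 27.1, 3.49 and 7.28 FPKM in TAp63-/- tumours, 4.01 and 3.41 in WT tumours, 2.57, 23.0 and 14.2 in TAp63-/- skin and 3.97, 14.6 and 17.4 in WT skin. The groups overlapped, with the low value of each skin group in replicate 1. Both WT tumours were near the lowest value of TAp63-/- tumours and of WT skin. By group mean, Nos2 and Spp1 ran from TAp63-/- tumours over WT tumours and TAp63-/- skin to WT skin, and Trem2 had the order of Csf1r.

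**Figure D1:**
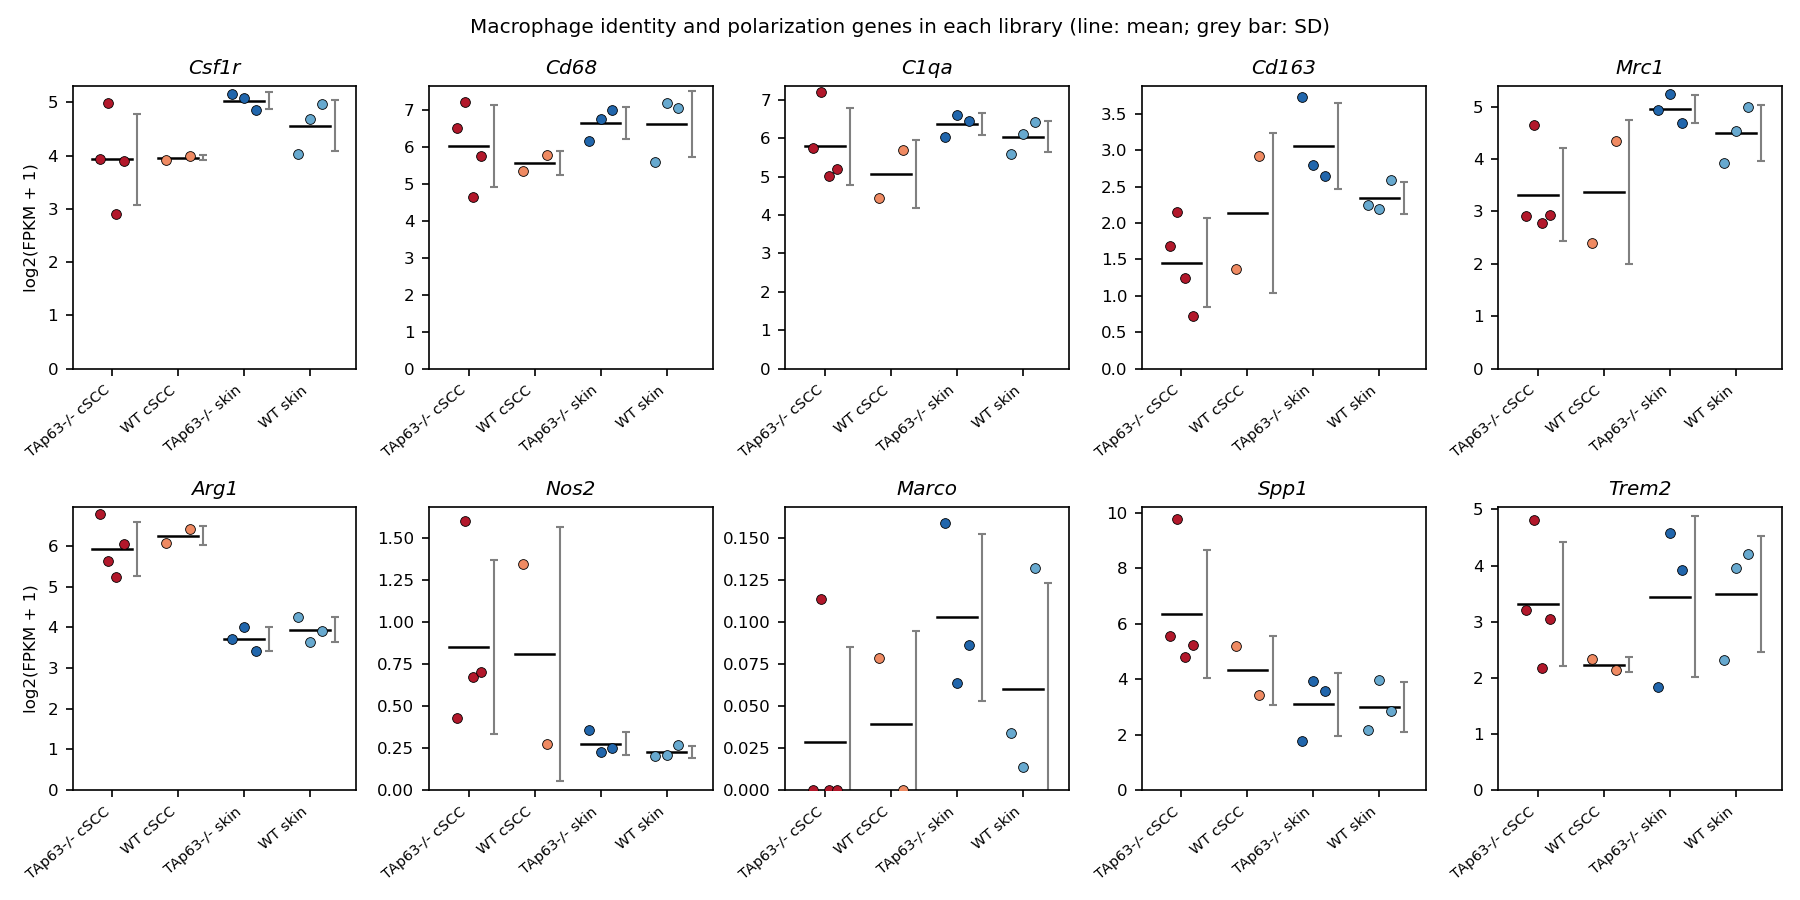
log2(FPKM + 1) of each gene in each library (points), with the group mean (line) and SD (grey bar, cut at 0 for Marco; n = 4 TAp63-/- cSCC, 2 WT cSCC, 3 TAp63-/- skin, 3 WT skin), on an axis of its own per gene. Arg1 lies higher in all tumours than in all skin libraries, Cd163 lies lower in TAp63-/- tumours than in skin, and the top point of Spp1 is TAp63-/- cSCC replicate 2 at 886 FPKM.

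Promoter windows from RefSeq (build GRCm38.p6, 250 bases before to 50 after each start) were matched for 6 of the 10 genes: Cd68, Cd163, Mrc1, Marco, Spp1 and Trem2. Both strands of each window were searched for 3 motifs, and no matches overlapped. The letters GAGGAA, the core of sites bound by the myeloid factor PU.1, were found in 5 of the 6 genes, all but Cd163, and in 28.3% of 32851 windows. The AP-1 motif TGANTCA was found in Cd68 and Trem2 and in 7.81% of all windows. The letters TATAAA of the TATA box were found in Spp1 and in 13.6% of all windows. A match is a description of letters and not a site shown to be bound. The windows of Mrc1 and Cd163, the receptors whose levels are lower in TAp63-/- tumours than in skin, and that of Spp1, whose level is higher, are shown on the plus strand with matches in capitals. The capitals in Mrc1 are the PU.1 core read on the other strand.
Mrc1, chr2:14229164-14229463: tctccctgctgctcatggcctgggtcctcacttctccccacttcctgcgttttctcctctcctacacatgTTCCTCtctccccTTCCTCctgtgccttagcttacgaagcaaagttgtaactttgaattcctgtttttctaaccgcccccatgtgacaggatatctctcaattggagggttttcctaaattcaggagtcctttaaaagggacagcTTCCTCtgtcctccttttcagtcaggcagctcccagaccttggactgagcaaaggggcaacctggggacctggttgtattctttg
Cd163, chr6:124304401-124304700: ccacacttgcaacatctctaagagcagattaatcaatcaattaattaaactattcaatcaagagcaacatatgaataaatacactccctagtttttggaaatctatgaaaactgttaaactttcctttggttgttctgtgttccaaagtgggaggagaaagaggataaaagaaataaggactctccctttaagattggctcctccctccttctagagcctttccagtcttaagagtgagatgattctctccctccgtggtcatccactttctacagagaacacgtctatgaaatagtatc
Spp1, chr5:104434861-104435160: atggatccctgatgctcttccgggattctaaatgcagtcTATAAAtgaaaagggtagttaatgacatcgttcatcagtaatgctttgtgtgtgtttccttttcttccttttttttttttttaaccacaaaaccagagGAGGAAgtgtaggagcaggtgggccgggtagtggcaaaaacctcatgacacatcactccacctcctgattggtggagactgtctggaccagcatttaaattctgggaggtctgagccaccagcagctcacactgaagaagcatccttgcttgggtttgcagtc
Mrc1 held 3 matches to the PU.1 core, which begin at positions -180, -167 and -35 from its start, and Cd163 held none of the 3 motifs. In Spp1 the TATA letters begin at -211 and the PU.1 core at -113.

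The comparison of TAp63-/- tumours with TAp63-/- skin asked how the tumours differed from the skin of the same genotype. Arg1 and Spp1 rose in the tumours, and the receptors Cd163 and Mrc1 fell. The lineage genes Csf1r, Cd68 and C1qa, with Nos2 and Trem2, did not pass. Thus 4 of the 9 tested genes were called (2 higher, 2 lower), in a comparison in which 27.2% of all tested genes were called, and their median log2 change was -0.57 beside 0.10 over all genes.

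Arg1 averaged 64.9 ± 31.6 FPKM in TAp63-/- tumours (SD, n = 4) and 12.4 ± 2.76 in TAp63-/- skin (n = 3), a log2 change of 2.21 (SE 0.33, 95% interval 1.49 to 2.92, limma adjusted p = 0.000712). Cd163 averaged 1.92 ± 1.21 FPKM in the tumours and 7.85 ± 3.90 in skin (log2 change -1.61, SE 0.43, interval -2.55 to -0.66, limma adjusted p = 0.0184). Mrc1 averaged 10.7 ± 8.83 and 30.4 ± 5.94 FPKM in tumours and skin (-1.64, SE 0.53, interval -2.80 to -0.47, limma adjusted p = 0.0410). Spp1 changed by 3.27 on the log2 scale (SE 1.09, interval 0.88 to 5.66, limma adjusted p = 0.0455). The log2 change of Csf1r was -1.10 (SE 0.40, interval -1.98 to -0.23, limma adjusted p = 0.0611). Its interval left out 0, with an unadjusted limma p of 0.0180, but it did not pass once all genes were counted. Intervals of the other genes included 0: Nos2 -0.11 to 1.26, C1qa -1.65 to 0.50, Cd68 -1.85 to 0.63 and Trem2 -1.76 to 1.48.

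Only Arg1 kept its call with any 1 library left out. Cd163 lost it without TAp63-/- skin replicate 1, the library with its highest value (log2 change -1.27, limma adjusted p = 0.0857). Mrc1 kept its call without TAp63-/- cSCC replicate 2 (-2.08, limma adjusted p = 0.00675) and lost it without each of the other 6 libraries (adjusted p 0.0701 to 0.120). Spp1 was called without TAp63-/- cSCC replicate 2 at a smaller change (2.12, limma adjusted p = 0.0348) and without TAp63-/- cSCC replicate 3 (adjusted p = 0.0373), but not without any of the other 5 (adjusted p 0.0508 to 0.168). Without TAp63-/- cSCC replicate 2, Csf1r (-1.46, limma adjusted p = 0.00696) and C1qa (-1.05, limma adjusted p = 0.0451) were called lower as well, and 6 genes were called. Without TAp63-/- skin replicate 1 the count was 1, without TAp63-/- cSCC replicate 3 it was 3, and without any of the other 4 libraries it was 2. With sex as a covariate Arg1 was called (limma adjusted p = 0.00150) and Cd163, Mrc1 and Spp1 were not (0.132 to 0.367), and with muscle markers as a covariate Cd163 (2.06) and Mrc1 (2.03) lay above 0 and none of the 9 genes was called (0.218 or more).

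**Figure D2:**
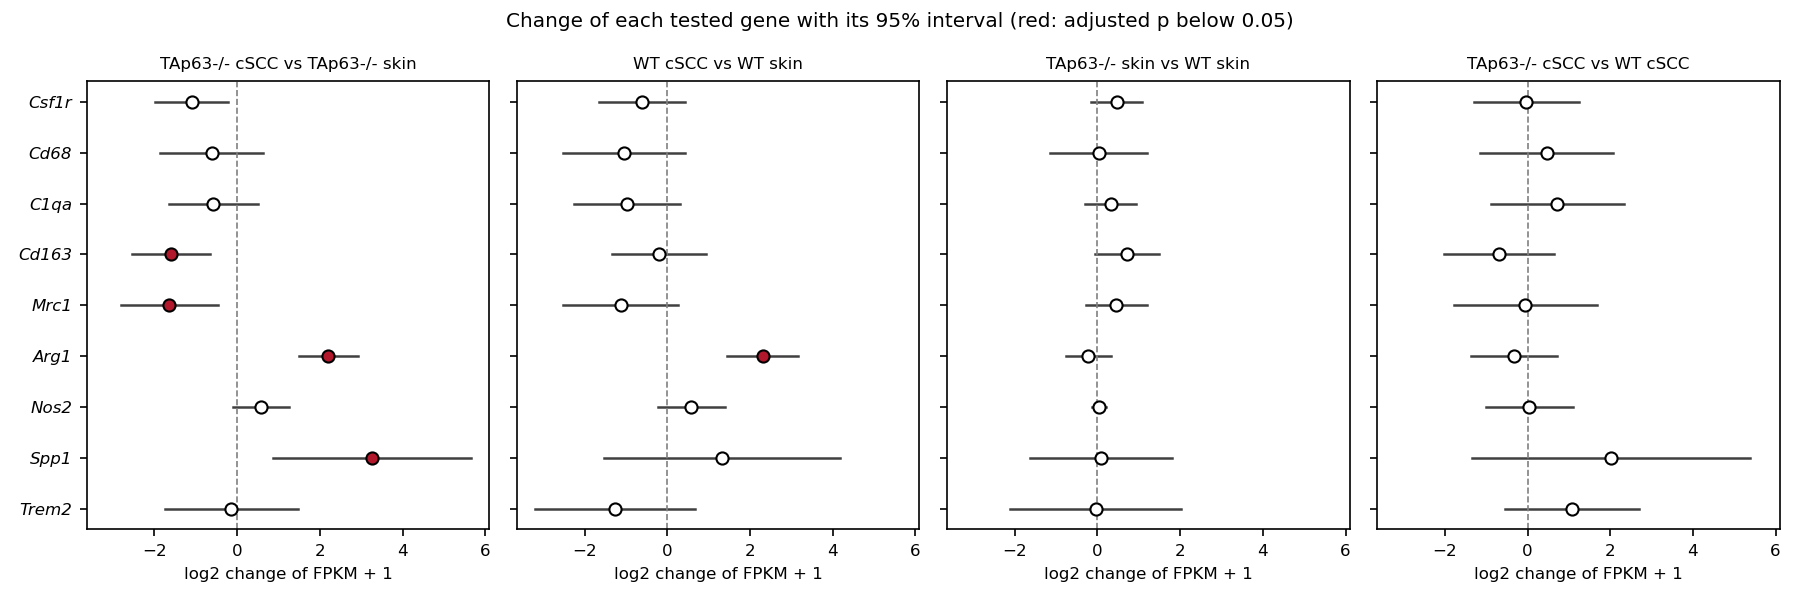
Log2 change (point) with its 95% interval (bar) for the 9 tested genes in 4 comparisons; red points have a limma adjusted p below 0.05. Arg1 is red in both tumour-skin panels at 2.21 and 2.31, Cd163, Mrc1 and Spp1 are red only in the TAp63-/- panel, and no point is red between genotypes.

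In WT tumours set against WT skin, Arg1 rose and was the 1 of 9 tested genes that passed, with 11.4% of all genes called. Arg1 averaged 75.6 ± 12.3 FPKM (SD, n = 2) in WT tumours against 14.6 ± 3.37 FPKM (n = 3) in WT skin, a log2 change of 2.31 (SE 0.39, interval 1.45 to 3.17, limma adjusted p = 0.00464), and it was called with any 1 of these 5 libraries left out, though not with muscle markers as a covariate (limma adjusted p = 0.229). The median log2 change of the 9 genes was -0.61, beside 0.04 over all genes. The lineage genes had values below 0 that did not pass: Cd68 -1.05 (limma adjusted p = 0.340), C1qa -0.98 (0.306) and Csf1r -0.61 (0.439). Csf1r nevertheless had both WT tumours just below all WT skin libraries. Spp1 changed by 1.33 with an interval of -1.53 to 4.19, Mrc1 by -1.13 (-2.52 to 0.27), Cd163 by -0.20 (-1.33 to 0.93) and Trem2 by -1.26 (-3.19 to 0.68). WT cSCC replicates 1 and 2 differed several-fold from each other in Mrc1, Cd163 and Spp1.

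Whether loss of TAp63 moved these genes was read within each tissue. In TAp63-/- against WT skin, 0 of the 9 genes were called, 0 had an unadjusted p below 0.05, and 0.0203% of all genes (3) were called, with 738 genes at an unadjusted p below 0.05. Cd163 was highest in TAp63-/- skin (7.85 ± 3.90 FPKM, n = 3) and 4.12 ± 0.802 in WT skin (n = 3), without overlap of the libraries (log2 change 0.72, interval -0.06 to 1.49, limma adjusted p = 0.922). How many of all genes lacked overlap between these groups is not given here, so nothing is read from that of Cd163. Csf1r (0.47, interval -0.15 to 1.09) and Mrc1 (0.46, -0.27 to 1.19) had values of the same sign as Cd163. The 9 genes had a median log2 change of 0.09, and 7 of them were above 0, beside a median of 0.02 and 53.3% over all genes. Of the 7, Cd68 (0.03), Nos2 (0.05) and Spp1 (0.09) lay close to 0. Cd68 was at -0.48 without WT skin replicate 1, and Spp1 at -0.33 without TAp63-/- skin replicate 2. No direction is read from this count. Spp1 (-1.63 to 1.81) and Trem2 (-2.11 to 2.02) had the widest intervals, so a several-fold difference in either direction was not detectable with 3 libraries a group.

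In TAp63-/- against WT tumours, limma called 0 of the 9 genes and 0% of all genes, with 419 genes but 0 of the 9 at an unadjusted p below 0.05. For each of the 9 genes the range of the WT tumours overlapped that of the TAp63-/- tumours. The share of all genes with such overlap is not given here, so nothing is read from this count. The largest differences were in Spp1 (2.03, interval -1.34 to 5.39) and Trem2 (1.08, -0.53 to 2.69), both limma adjusted p = 1, and without TAp63-/- cSCC replicate 2 they were 0.88 and 0.58. Arg1 differed by -0.32 (-1.36 to 0.71) and Csf1r by -0.03 (-1.30 to 1.24).

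The difference between genotypes in the tumour-skin change was tested itself. Here too 0 of the 9 genes were called, 0 had an unadjusted p below 0.05, and 0.0271% of all genes were called, with 444 genes at an unadjusted p below 0.05. Cd163 came nearest, with a tumour-skin change that was lower by 1.41 in TAp63-/- than in WT (difference -1.41, interval -2.88 to 0.06, limma adjusted p = 1). The value for Arg1 was -0.10 (interval -1.22 to 1.01), for Spp1 1.94 (-1.79 to 5.66) and for Mrc1 -0.51 (-2.33 to 1.30). The calls of Cd163, Mrc1 and Spp1 in TAp63-/- mice were therefore not shown to differ from WT mice.

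Each gene was also set against the other macrophage genes of its own library, 19 genes such as Adgre1, Mpeg1, Tyrobp and C1qc, as a difference of log2(FPKM + 1). These are descriptions without a test. The mean log2(FPKM + 1) of the 19 genes was 4.60, 5.65, 3.68 and 4.22 in TAp63-/- tumours, 3.69 and 4.19 in WT tumours, 4.24, 4.79 and 4.54 in TAp63-/- skin and 3.87, 4.52 and 4.65 in WT skin. The groups overlapped, and TAp63-/- cSCC replicate 2 was again the highest. Against that level Mrc1 lay at -1.68 to -0.90 in TAp63-/- tumours and 0.15 to 0.70 in TAp63-/- skin, and at -1.30 and 0.15 in WT tumours and 0.02 to 0.36 in WT skin. Csf1r lay at -0.78 to -0.33 in TAp63-/- tumours and 0.29 to 0.92 in TAp63-/- skin, and at 0.23 and -0.20 in WT tumours and 0.16 to 0.32 in WT skin. In TAp63-/- mice neither gene overlapped between tumour and skin on this scale, TAp63-/- cSCC replicate 2 included. How many of all genes would lie apart on this scale is not given here. C1qa (0.98 to 1.56 in TAp63-/- tumours and 1.80 to 1.92 in TAp63-/- skin) and Cd68 (0.96 to 1.92 and 1.92 to 2.45, nearly touching) were also lower in tumours, so this separation was not particular to Mrc1 and Csf1r. In WT mice C1qa averaged 1.13 in the 2 tumours, both below the 1.59 to 1.78 of skin, and Cd68 lay at 1.59 and 1.64 in tumours and 1.71 to 2.66 in skin.

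Cd163 showed the same separation in TAp63-/- mice, at -3.50 to -2.43 in tumours and -2.0 to -0.50 in skin. In WT mice Cd163 overlapped, at -2.327 and -1.268 in tumours and -2.333 to -1.625 in skin. Spp1 lay at 0.96 to 4.15 in TAp63-/- tumours and -2.46 to -0.87 in TAp63-/- skin, and at 1.52 and -0.75 in WT tumours and -1.79 to -0.56 in WT skin. Arg1 lay at -0.01 to 2.18 in TAp63-/- tumours and -1.11 to -0.52 in TAp63-/- skin, and at 2.39 and 2.22 in WT tumours and -0.88 to 0.39 in WT skin. Trem2 overlapped, at -1.51 to -0.83 in TAp63-/- tumours and -2.40 to -0.21 in TAp63-/- skin. It overlapped in WT mice too, at -1.365 and -2.052 in tumours and -1.56 to -0.4453 in skin.

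**Figure D3:**
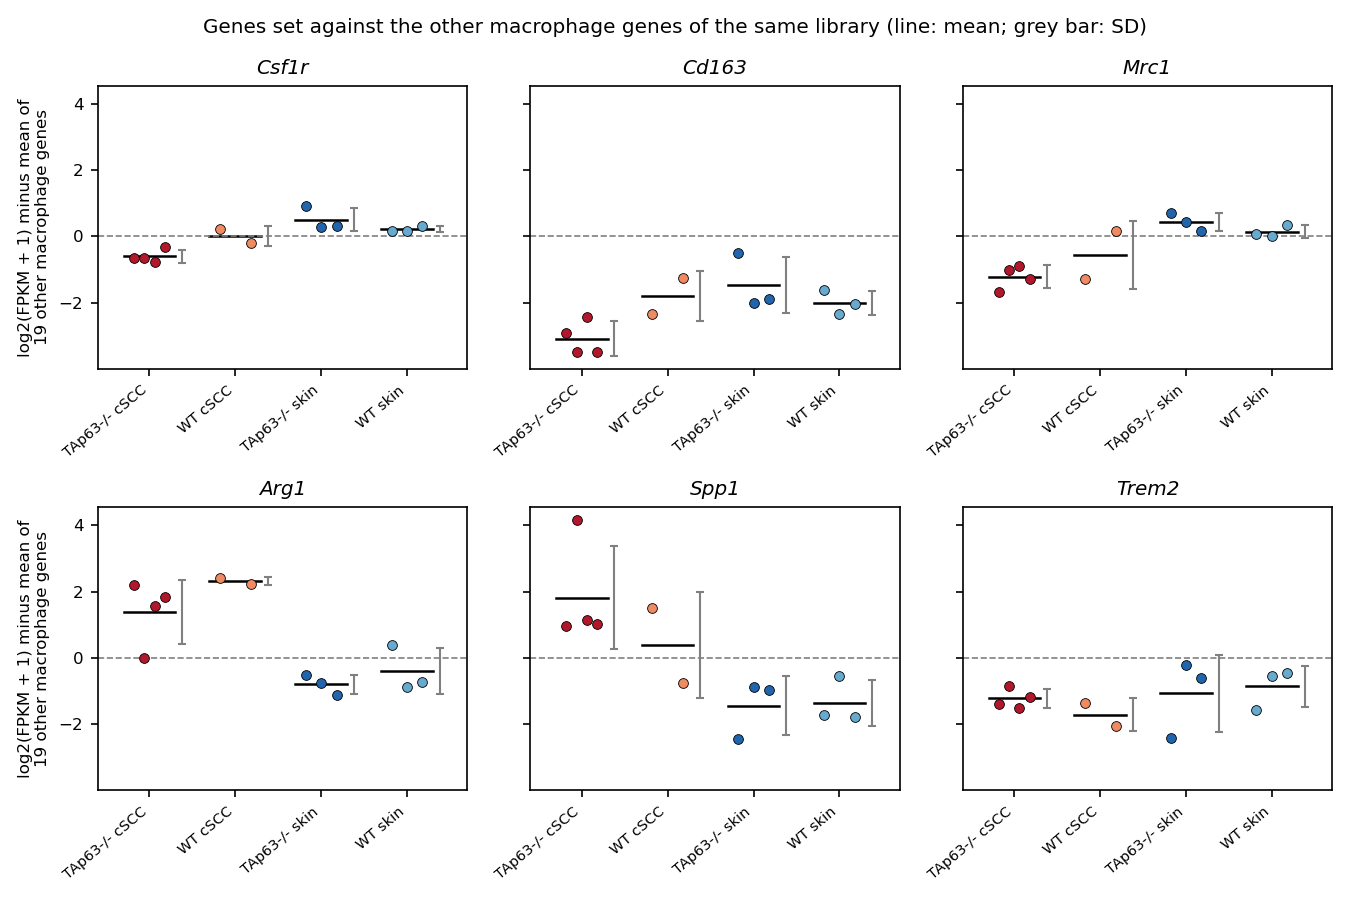
log2(FPKM + 1) of 6 genes minus the mean of 19 other macrophage genes in the same library (points), with the group mean (line) and SD (grey bar; n = 4, 2, 3 and 3 from left to right). Csf1r, Cd163 and Mrc1 lie lower in all 4 TAp63-/- tumours than in all 3 TAp63-/- skin libraries, Arg1 and Spp1 lie higher, and Trem2 overlaps.

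The genes around these members were followed in lists chosen by pathway. In TAp63-/- tumours the resident and alternatively activated list split, with Retnla, Folr2, F13a1 and lectins falling beside Cd163 and Mrc1 and with Chil3 and Il4ra rising beside Arg1. Over all genes 27.2% were called in this comparison. Of 14 tested resident and alternatively activated genes, which include Cd163, Mrc1 and Arg1, 4 rose and 7 fell (median log2 change -1.10, beside 0.10 over all genes). Those that fell with Cd163 and Mrc1 were Retnla, a secreted resistin-like protein induced by IL-4 (11.2 FPKM in tumours, 184 in skin; log2 change -4.74), Folr2, a folate receptor of resident macrophages (3.42 and 29.1; -3.05), F13a1, a transglutaminase (5.54 and 47.1; -3.01), and the lectins Mgl2 (-2.71) and Clec10a (-2.67). These 5 genes were named after their values were seen, had limma adjusted p from 0.000985 to 0.00991, and kept their calls with any 1 library left out. Chil3, a chitinase-like protein (9.16 and 0.301 FPKM; 2.69, limma adjusted p = 0.000960), and Il4ra, the IL-4 receptor chain (36.7 and 6.87; 2.24, limma adjusted p = 1.82e-05), rose. Of the 14, Chil3 and Pdcd1lg2 passed the filter through tumours alone. The scavenger receptor Stab1 also rose (41.9 and 11.2; 1.65, limma adjusted p = 0.0145), though not without TAp63-/- skin replicate 1 (adjusted p = 0.0556). Muscle and fibroblast markers fell over the same libraries.

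In WT tumours 3 genes of the same list rose and 0 fell (median -0.25, beside 0.04 over all genes, of which 11.4% were called). These were Arg1, Chil3 (2.59, limma adjusted p = 0.00845, and 0.0614 without WT cSCC replicate 1) and Il4ra (2.30, limma adjusted p = 0.000258). The values of Retnla (-3.49), Folr2 (-2.30) and Mgl2 (-2.23) were below 0 and did not pass (limma adjusted p 0.0621 to 0.101). Without WT cSCC replicate 2, the tumour with the highest level of hair follicle markers, 5 genes of the list fell.

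Of the classically activated list, which includes Nos2, 12 genes were tested. Of these, 6 passed the filter through tumours alone (Nos2, Tnf, Il6, Fpr2, Ptgs2 and Acod1), so a higher level in tumours was a condition of their test and nothing is read from the direction of the list as a whole. In TAp63-/- tumours 4 rose and 0 fell, beside 27.2% of all genes called. Ptgs2, a cyclooxygenase, averaged 46.4 FPKM in the tumours and 0.648 in skin (4.11, limma adjusted p = 0.00440), and the cytokine Il1b averaged 31.8 and 1.62 (3.26, limma adjusted p = 0.00298). Both kept their calls with any 1 library left out, and Il1b would have been tested from its skin values alone. Cd80 and Cxcl10 were also called but did not keep their calls. Cd80 lost its call without TAp63-/- cSCC replicate 4 or TAp63-/- skin replicate 1 or 2 (adjusted p 0.0503 to 0.0685), and Cxcl10 without any library but TAp63-/- cSCC replicate 3 (adjusted p 0.0689 to 0.119). The count of genes that rose was 7 without TAp63-/- cSCC replicate 3 and 2 without TAp63-/- cSCC replicate 4 or TAp63-/- skin replicate 1 or 2. In WT tumours Ptgs2 (4.40), Il1b (3.10) and Cd80 (1.66) rose, but Ptgs2 and Il1b lost their calls without WT cSCC replicate 1 (adjusted p 0.124 and 0.202) or WT skin replicate 2 or 3 (0.0554 to 0.0695), and Cd80 without WT cSCC replicate 2 (0.0545). The count that rose was then 1 without WT skin replicate 2 or 3. Neutrophils and keratinocytes also express some of these genes: 9 neutrophil markers averaged 0.88 to 1.65 on the log2 scale in TAp63-/- tumours and 0.91 and 1.55 in WT tumours, against 0.74 to 0.80 in TAp63-/- skin and 0.72 to 0.83 in WT skin. Their summed level was 12.4 to 46.9 FPKM in TAp63-/- tumours and 14.6 and 26.6 in WT tumours, against 19.2 to 45.0 in TAp63-/- skin and 21.6 to 28.9 in WT skin. Ly6g, Camp and Elane were below 1 FPKM in every library. Cxcr2, a chemokine receptor of neutrophils named after its values were seen, rose in TAp63-/- tumours (6.75 FPKM, against 0.329 in TAp63-/- skin; log2 change 2.49, limma adjusted p = 0.000123) and in WT tumours (5.92 FPKM, against 0.366 in WT skin; 2.33, limma adjusted p = 0.00196). It kept both calls with any 1 library left out, and, being below 1 FPKM in every skin library, it passed the filter through tumours alone. Il1r2 of the same list fell in TAp63-/- tumours (9.93 FPKM, against 29.4 in TAp63-/- skin; limma adjusted p = 0.0225; 0.0671 and 0.101 without TAp63-/- skin replicate 2 and 1) and makes up most of the summed level in skin. The part of these cells in the results was not tested.

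The pan-macrophage list of 22 genes, with Csf1r, Cd68 and C1qa among them, had median log2 changes of -0.28 in TAp63-/- and -0.60 in WT tumours. Limma called 0 of the 22 in WT tumours, beside 11.4% of all genes. In TAp63-/- tumours 2 rose and 0 fell, beside 27.2% of all genes called. The fractalkine receptor Cx3cr1 was among those that rose (3.00 FPKM in TAp63-/- tumours, 1.24 in TAp63-/- skin; log2 change 0.81, limma adjusted p = 0.0282). Cx3cr1 lost its call without TAp63-/- cSCC replicate 1 or 4 or TAp63-/- skin replicate 1 or 3 (adjusted p 0.0547 to 0.101). The count that rose in TAp63-/- tumours was 1 without TAp63-/- cSCC replicate 1 or 4 or TAp63-/- skin replicate 3, and 0 without TAp63-/- skin replicate 1. Without TAp63-/- cSCC replicate 2, 6 genes of the list fell and 2 rose. Without WT cSCC replicate 2, 1 gene fell in WT tumours.

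Of 12 genes of the lipid-associated and tumour macrophage list, with Spp1 and Trem2, 3 rose and 3 fell in TAp63-/- tumours. In WT tumours 2 rose and 1 fell (median log2 changes -0.21 and -0.43). Over all genes, 27.2% and 11.4% were called in these comparisons. Fabp5, a fatty acid carrier abundant in keratinocytes (3304 FPKM in TAp63-/- tumours, 399 in skin; 3.13, limma adjusted p = 8.17e-05), and the angiogenic factor Vegfa (2.18, limma adjusted p = 0.000128) rose in TAp63-/- tumours and, by 2.90 and 2.21, in WT tumours. Lpl, the lipoprotein lipase of fat, fell in TAp63-/- tumours (-3.11, limma adjusted p = 0.0217), but not without TAp63-/- cSCC replicate 3 or 4 or TAp63-/- skin replicate 1 or 2 (adjusted p 0.0515 to 0.0851). The count that fell in TAp63-/- tumours was 0 without TAp63-/- cSCC replicate 3 or TAp63-/- skin replicate 1 or 2, and 1 without TAp63-/- skin replicate 3. In WT tumours it was 2 without WT cSCC replicate 2 and 0 without any of the other 4 libraries. Adipocyte markers moved with Lpl: 4 of 5 (Adipoq, Plin1, Cidec and Lep) fell in TAp63-/- tumours (median log2 change -3.81), and all 4 calls held with any 1 library left out. In WT tumours 3 of 5 fell (-3.21), none of which held in every such fit. Their mean log2(FPKM + 1) was 1.35 to 3.73 in TAp63-/- tumours and 3.19 and 4.90 in WT tumours, against 4.93 to 7.65 in TAp63-/- skin and 6.39 to 6.95 in WT skin, and their part in the fall of Lpl was not tested.

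**Figure D4:**
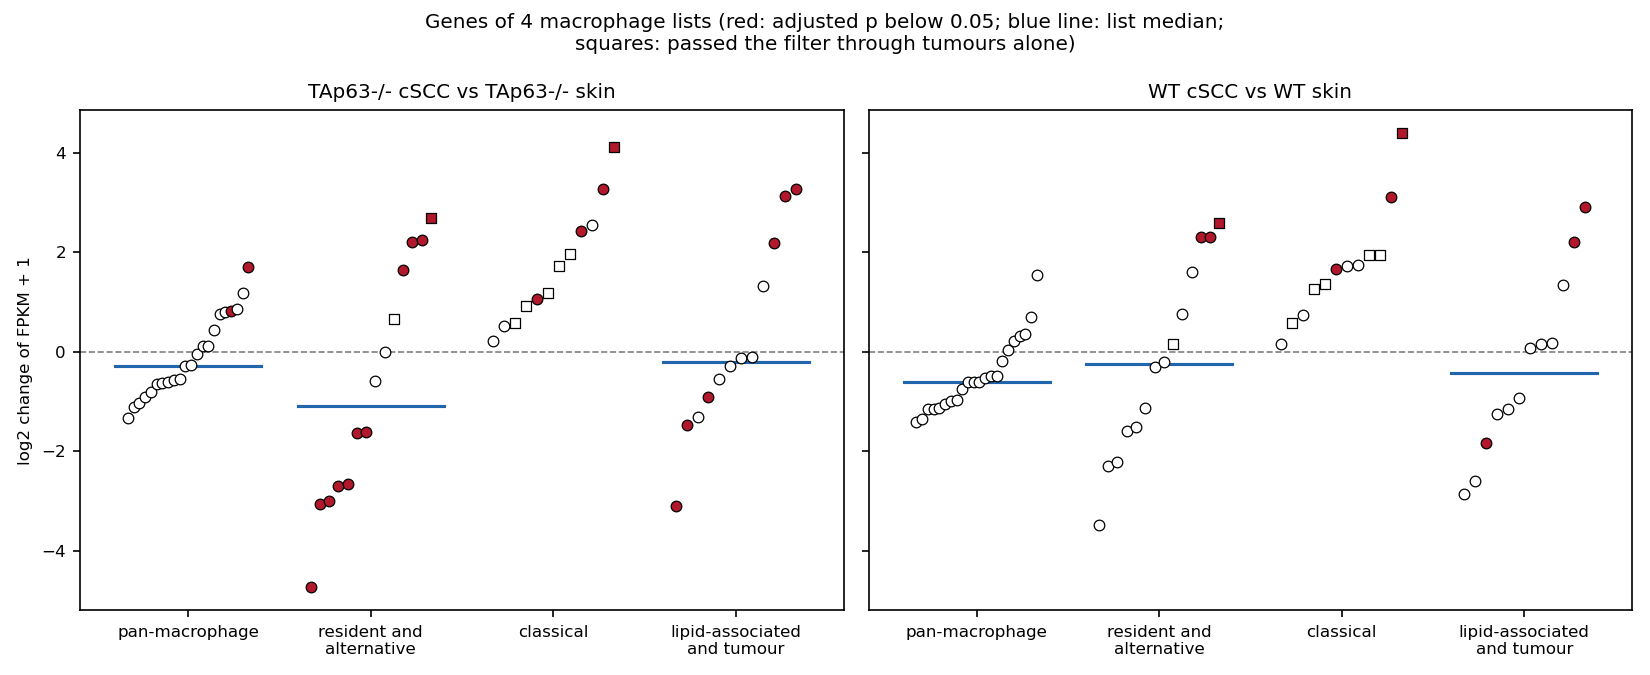
Log2 change of every tested gene of 4 macrophage lists (points, sorted within a list) in both tumour-skin comparisons; red points have a limma adjusted p below 0.05 and blue lines are list medians. Squares are genes that passed the filter through tumours alone, 6 of 12 in the classical list, for which no median is drawn. The resident and alternative list spreads to both sides of 0 in TAp63-/- mice (4 red above, 7 red below).

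The ligands and receptors around Csf1r did not move together: of 7 tested, 2 rose and 0 fell in TAp63-/- tumours (median log2 change 0.36), and 1 rose and 0 fell in WT tumours (-0.31), shares near the 27.2% and 11.4% called over all genes. The count that rose in TAp63-/- tumours was 1 without TAp63-/- cSCC replicate 1 or TAp63-/- skin replicate 1 or 2, and 1 gene fell without TAp63-/- cSCC replicate 1 or 2. In WT tumours 0 rose without WT cSCC replicate 1. Csf1 did not pass in TAp63-/- tumours (17.2 ± 10.1 FPKM, against 19.3 ± 3.71 in skin; log2 change -0.33, limma adjusted p = 0.555). Il34, the CSF1R ligand made by keratinocytes, had 68.5 ± 70.4 FPKM in TAp63-/- tumours against 196 ± 101 in skin (-1.84, limma adjusted p = 0.0516), and 33.4 ± 11.7 FPKM in WT tumours against 199 ± 130 in skin (-2.40, limma adjusted p = 0.0647). Both fell short of the call. The granulocyte factor Csf3, which passed the filter through tumours alone, rose in TAp63-/- tumours (2.46 FPKM, against 0.0210 in skin; 1.72, limma adjusted p = 0.00357). In WT tumours it averaged 3.79 FPKM and was listed at 0 in all WT skin libraries (limma adjusted p = 0.00829; 0.0748 without WT cSCC replicate 1). Its receptor Csf3r rose in TAp63-/- tumours (1.61, limma adjusted p = 0.0296), but not without TAp63-/- cSCC replicate 1 or TAp63-/- skin replicate 1 or 2 (adjusted p 0.0507 to 0.106). Csf2ra (0.36) and Csf2rb (0.45) did not pass, and Csf2 was not tested.

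Around Arg1 and Nos2, 4 of 11 genes of arginine and nitric oxide metabolism rose in TAp63-/- tumours and 3 fell (median log2 change 0.58). Over all genes 27.2% were called. The count that rose was 2 without TAp63-/- cSCC replicate 3 or 4 or TAp63-/- skin replicate 1 or 2, and the count that fell was 1 without TAp63-/- skin replicate 2. Besides Arg1, the arginine transporter Slc7a1 rose (27.4 FPKM in tumours, 6.94 in skin; 1.88, limma adjusted p = 0.00989). The neuronal synthase Nos1, which is abundant in muscle, fell (0.290 and 9.06 FPKM; -2.81, limma adjusted p = 0.000357), with the muscle markers given above. The mitochondrial arginase Arg2 fell in TAp63-/- tumours (-1.52, limma adjusted p = 0.0124) but not without TAp63-/- skin replicate 2 or 3 (adjusted p up to 0.0537). In WT tumours 2 genes rose and 1 fell (median 0.46), beside 11.4% of all genes called. The gene that fell in WT tumours was Nos1 (-2.94, limma adjusted p = 0.00267). There 1 gene rose without any library but WT cSCC replicate 2. Nos1 passed the filter through skin alone, and Nos2 through tumours alone.

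For osteopontin receptors, 3 of 10 rose and 0 fell in TAp63-/- tumours (median log2 change 0.64), and 2 rose and 0 fell in WT tumours (0.38). The first share is near the 27.2% called over all genes, and the second stands beside 11.4%. Neither count is a result about these receptors as a group. Without WT cSCC replicate 1, 0 rose in WT tumours. Cd44 averaged 289 FPKM in TAp63-/- tumours and 63.5 in skin (2.21, limma adjusted p = 0.00107), and the integrin chain Itga5 12.9 and 4.69 (1.26, limma adjusted p = 0.00823). In WT tumours Cd44 (2.00) and Itga5 (1.65) rose too, but not without WT cSCC replicate 1 (limma adjusted p = 0.125 and 0.121). Both receptors are widely expressed, keratinocytes and fibroblasts included.

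Of 11 tested scavenger receptors, with Cd163 and Mrc1, 1 rose and 5 fell in TAp63-/- tumours (median log2 change -0.57), beside 27.2% of all genes called. In WT tumours 0 rose and 2 fell (-0.28), beside 11.4% of all genes. For TAp63-/- tumours the counts with 1 library left out were as follows. The counts were 0 and 3 without TAp63-/- skin replicate 1, and 2 genes rose without TAp63-/- cSCC replicate 1 or 3 or TAp63-/- skin replicate 3. In WT tumours 1 fell without WT cSCC replicate 1. The smallest p among those that are no members belonged to Scara5 (-4.49, limma adjusted p = 1.22e-05) and Scara3 (-2.28, limma adjusted p = 0.000206), which are known from fibroblasts and epithelia. The fatty acid receptor Cd36, named after its values were seen, fell by 3.15 (limma adjusted p = 0.0102). Scara5 and Scara3 also fell in WT tumours (-3.09 and -1.65; Scara3 with a limma adjusted p of 0.113 without WT cSCC replicate 1). Of 11 monocyte-attracting chemokines, 4 rose and 1 fell in TAp63-/- tumours, and limma called 0 in WT tumours (medians 0.54 and 0.12). The shares over all genes were again 27.2% and 11.4%. In TAp63-/- tumours 2 rose without TAp63-/- skin replicate 1 and 3 fell without TAp63-/- cSCC replicate 2, and in WT tumours 1 rose and 1 fell without WT cSCC replicate 2. Ccl7 rose (31.2 FPKM in tumours, 9.33 in skin; 1.60, limma adjusted p = 0.00194) and Cxcl12, which stromal cells secrete, fell (21.5 and 123; -2.64, limma adjusted p = 0.00368). Of 8 tested genes of TH2 and TH1 cytokines and receptors, 2 rose and 1 fell in TAp63-/- tumours, beside 27.2% of all genes called. In WT tumours 1 rose and 1 fell, beside 11.4% (medians 0.25 and 0.42). The count that fell was 0 without TAp63-/- skin replicate 1 in TAp63-/- tumours, and without WT cSCC replicate 1 or WT skin replicate 2 in WT tumours. Il13ra1, which pairs with Il4ra, rose in TAp63-/- tumours (110 FPKM, against 39.2 in skin; 1.42, limma adjusted p = 0.00550).

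Between genotypes limma called 0 genes of any of these 10 lists, in skin or in tumours, with 738 and 419 of all genes at an unadjusted p below 0.05. The pan-macrophage list had 18 of 22 genes above 0 in TAp63-/- against WT skin (median log2 change 0.22), where 53.3% of all genes were above 0 (median 0.02). That count was 11 (median 0.01) without WT skin replicate 1 and 13 (median 0.02) without TAp63-/- skin replicate 2. In TAp63-/- against WT tumours 20 of 22 were above 0 (median 0.61), again beside 53.3% of all genes (median 0.03), and it was 14 (median 0.21) without TAp63-/- cSCC replicate 2 and 19 (median 0.16) without WT cSCC replicate 1. Among the genes with the smallest p of a list, Cd14 differed by 0.58, Stab1 by 0.56, Il10ra by 0.41, Nos3 by 0.31, Tnf by -0.28, Lpl by -0.64 and the integrin chain Itgb6 by -0.95 in skin (limma adjusted p 0.831 to 0.922). In tumours Itgax differed by 0.89, Itga8 by 0.43, Cd86 by 0.41, Cx3cl1 by -0.72, Lyve1 by -1.08 and Arg2 by -1.14 (each limma adjusted p = 1).

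Within groups, the lineage genes went together and Arg1 stood by itself. Over the 12 libraries, after group means were taken off, the correlation (Pearson's r, log2 scale) was 0.923 between C1qa and Mrc1, 0.863 between Csf1r and Cd68, 0.83 between Cd68 and Trem2 and 0.82 between Spp1 and Trem2. For Arg1 it ran from -0.427 to 0.160 with the other 8. These values are descriptions, since the genes share each piece of tissue and TAp63-/- cSCC replicate 2 weighs on many of them.

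By the same measure over 9197 genes, the closest to each member were named. These r are the largest of a search and carry no test. Csf1r was closest to the cytokine receptor chains Csf2rb2 (0.985) and Csf2rb (0.975), Cd68 to Lilrb3 (0.971) and Cyth4 (0.951), C1qa to Ms4a6d (0.980) and C1qc (0.976), and Trem2 to Mpeg1 (0.942) and AF251705 (0.939). Most of these are genes of leukocytes. Mrc1 was closest to Tm6sf1 (0.979) and Dpt (0.967), a dermal matrix protein, and Cd163 to Myom2 (0.960), a sarcomere protein, and Rarres2 (0.958). Spp1 was closest to Map2k5 (0.972) and to the macrophage elastase Mmp12 (0.971). Without TAp63-/- cSCC replicate 2 these were 0.931 for Map2k5 and 0.977 for Mmp12. Mmp12 had 72.3, 909, 33.4 and 28.7 FPKM in TAp63-/- tumours and 52.1 and 11.4 in WT tumours, against 7.15, 79.8 and 56.5 in TAp63-/- skin and 25.9, 172 and 53.2 in WT skin. Its highest value was in the same library as that of Spp1, but tumour and skin overlapped and its change did not pass (1.44 in TAp63-/- mice, limma adjusted p = 0.410). Arg1 was closest to Lcn2 (0.904) and Tfap2b (0.895), and Nos2 to Eps8 (0.984) and Snora31 (0.976).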

How the data were processed

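RNA-seq was read from 1 deposited table of 37924 gene entries in 12 libraries. Total RNA was extracted with a miRVANA kit and libraries were made with a TruSeq RNA kit, per the labels' protocols. TopHat2 2.0, Cufflinks 2.0 and the build mm10 are named in the submitters' processing notes. The values in the table that the authors deposited were taken as FPKM, a unit inferred from these tools and from the values. At least 99.99% of the sorted values at or above 0.1 FPKM lay within 1% of common values in every library, so the table appears quantile normalised, a step no header or label states, which makes summed levels of libraries alike. Read depth is therefore unknown, and no counting interval is given. Coordinates are those of the table, counted from 1.

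A gene was tested where 2 or more of the 12 libraries reached 1 FPKM, on the log2(FPKM + 1) scale, which understates changes of low genes. Tests were two-sided and used limma 3.58.1 (R 4.3.3) with its trended prior variance and Benjamini-Hochberg adjustment over 14752 genes and a threshold of 0.05. The tumour-skin comparisons and their difference between genotypes used all 12 libraries with 1 shared spread, and each genotype comparison used the 6 libraries of its tissue. The fits were also run on simulated data drawn gene by gene, which lack the shared tissue make-up of real libraries. No result here is read from them. The members and the gene lists were chosen with earlier results of these data known. Genes named beyond the members are the whole CSF1 axis list, the 2 genes with the smallest p in TAp63-/- tumours against skin and the 1 with the smallest in each genotype comparison from every other pathway list, and the 2 genes most like each member in r of log2(FPKM + 1) over genes averaging at least 5 FPKM. Other genes (Cxcr2, Il1r2, Cd36, Cd80, Cxcl10, Retnla, Folr2, F13a1, Mgl2 and Clec10a) were named after their values were seen. The alternatives were another pseudocount, other filters, other libraries in the fit, array weights, rescaling, sex or muscle markers as a covariate, a replicate block, and each library left out in turn. A gene that the rule for named genes picks is not reported here.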

Additional observations from a re-analysis of the deposited data

Results flagged for a closer look

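In 3 of the 10 genes, 1 library lay far from the others of its group, and in each it was TAp63-/- cSCC replicate 2. The test compared the gap to the nearest library with the range of the 4 TAp63-/- tumours, the one group large enough for it, against Dixon's 95% critical value, and chance flags about 1 in 20 such groups. Spp1 was at 886 FPKM (ratio 0.978), Mrc1 at 24.0 FPKM (ratio 0.959) and Nos2 at 2.04 FPKM (ratio 0.831, just above the critical value). The ratios were taken on FPKM, not on the log2 scale of the limma tests, and a flag near the critical value can depend on that choice. On log2(FPKM + 1) Spp1 was at 9.79 in this library and 4.81 to 5.56 in the other TAp63-/- tumours. Mrc1 was at 4.64 against 2.78 to 2.93, and Nos2 at 1.60 against 0.43 to 0.70. Marco, at 0.0820 FPKM in the same library, met the rule too, but the other 3 tumours were listed at 0, which fixes the ratio at 1, and the value lay within the range of skin. The 10 tests share their libraries, so these are not independent. The same library had the highest summed level of 5 leukocyte genes (651 FPKM).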

How the results depend on the processing

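Arg1 kept its call in TAp63-/- tumours against skin in 15 of 16 alternatives and in WT tumours in 13 of 14, Cd163 in 12 of 16, Mrc1 in 6 of 16 and Spp1 in 4 of 16. In TAp63-/- tumours against skin, 4017 genes and 4 members were called, against 1 member with no filter, 1939 genes and 1 member with sex as a covariate, and 0 and 0 with muscle markers as a covariate. Leaving out 1 library gave 2432 to 4446 genes and 1 to 6 members. In WT tumours against skin, 1687 genes and 1 member were called, against 1031 genes with no filter, 255 with sex, and 3 genes and 0 members with muscle, and 464 to 1907 genes with 1 member when 1 library was left out. In TAp63-/- against WT skin the 3 genes became 5 at a pseudocount of 0.1, 1 with no filter and 3 to 8 with a library left out. In TAp63-/- against WT tumours the 0 genes became 33 with no filter, 1 with all 12 libraries and 0 to 11 with a library left out. For the difference between genotypes the 4 genes became 16 with no filter and 1 to 15 with a library left out. No alternative called a member in these 3.

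With muscle markers as a covariate, 102 of 310 values of named genes changed sign. Among the members these were, in TAp63-/- tumours against skin, Csf1r (0.98), Cd68 (2.72), C1qa (2.88), Cd163 (2.06), Mrc1 (2.03), Nos2 (-0.24) and Trem2 (0.98), and in WT tumours Csf1r (0.97), Cd68 (1.47), C1qa (1.64), Cd163 (2.58), Mrc1 (1.65) and Nos2 (-0.04). Other called genes that changed sign were, in TAp63-/- tumours, Csf3 (-0.988), Ptgs2 (-1.81), Lpl (4.71), Slc7a1 (-0.85), Itga5 (-0.68), Cxcl12 (1.77), Il13ra1 (-0.40), Myom2 (0.42), Rarres2 (1.40), Dpt (0.55) and Tfap2b (1.41), and in WT tumours Ptgs2 (-0.079), Myom2 (0.34), Rarres2 (0.78) and Dpt (0.28). Muscle markers did not overlap between tumour and skin, and the cause of these and the other changes was not tested.

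The replicate numbers in the titles do not pair the libraries: tumour and skin came from mice of different ages, and number 3 joins a TAp63-/- tumour with WT skin. The correlations of 6 same-numbered tumour and skin libraries ran from -0.24 to 0.19, and 2 of 6 tumours were closest to the skin library of their number. The replicate block groups libraries by these numbers and so stands for no known pairing. With it, 2493 genes and 2 members were called in TAp63-/- tumours against skin, 475 genes in WT tumours and 0 genes in the difference between genotypes.

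With 2 WT tumours, differences of several-fold between tumours of the genotypes could not be detected for genes with wide intervals, such as Spp1 (-1.34 to 5.39). The interval of Arg1 (-1.36 to 0.71) was narrower. As depth is unknown, low values such as those of Nos2 and Marco carry no counting error. Over all alternatives, 4448 values of named genes stayed on their side of the threshold without a change of sign beyond their error, 137 lost the call, 31 gained it, 17 values called in either fit changed sign, and 101 called in neither changed sign beyond their error, 58 of these with muscle markers as a covariate.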
